A study of Danio rerio with 12 samples.

Results

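The genes described here are 8 of the 14581 genes in an RNA-seq table of zebrafish neuroblastoma. They are the neural crest factors tfap2a and mitfa and the pigment cell genes pmela, gpr143, trpm1b, dct, tyrp1b and pnp4a, found by their gene names, and all 8 were in the table. They were picked with their levels in these libraries, MYC against MYCN, already known. Their differences between the genotypes are therefore given as values without a test, and nothing is supported with them.

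The libraries came from fish carrying a MYC transgene (8 libraries, MYC 1 to MYC 8) or a MYCN transgene (4 libraries, MYCN 1 to MYCN 4). In each case fluorescent (EGFP-positive) tumour cells were sorted from fish that bore neuroblastomas, and their ribosome-depleted RNA was sequenced. The labels give no treatment or age, and do not say whether libraries came from separate fish, so a p-value measures the spread between these libraries, which may be technical. In the published lines of this study the dbh promoter, active in sympathoadrenal cells, drives the transgenes. The values are FPKM, fragments scaled by transcript length and library depth, and the read depth is unknown. Tests were made with limma on log2(FPKM + 1), MYC minus MYCN, over the 9606 genes that reached 1 FPKM in 4 or more libraries, and "rose" and "fell" are used only for genes with an adjusted p under 0.05.

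The neural crest is an embryonic cell population that gives rise both to sympathetic neurons, the lineage of neuroblastoma, and to the pigment cells of the skin. In zebrafish, AP-2 factors such as tfap2a act early in the crest. The basic helix-loop-helix factor mitfa, the gene mutated in nacre fish, then directs crest cells to become melanophores and turns on the enzymes and structural proteins of the melanosome, the pigment granule. Xanthophores make yellow pteridines, and iridophores make reflecting purine platelets.

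Noradrenergic enzyme genes, which mark the labelled cell type, were abundant in both genotypes. The gene dbh, which makes noradrenaline, averaged 1803 ± 548 FPKM in MYC libraries and 2499 ± 632 FPKM in MYCN libraries (SD, n = 8 and 4). The gene th, which starts catecholamine synthesis, averaged 518 ± 182 FPKM in MYC libraries and 646 ± 217 FPKM in MYCN libraries. Neither passed the test (adjusted p = 0.269 and 0.510). The sympathoadrenal genes ddc and slc18a2 averaged higher in MYC libraries, unlike dbh and th, and were not called. Levels of ddc were 25.3 to 171 FPKM in MYC and 39.6 to 110 FPKM in MYCN libraries. Those of slc18a2 were 15.6 to 80.8 and 14.2 to 40.3 FPKM. Of the 12 sympathoadrenal genes tested 5 fell and 0 rose in MYC cells. The most different were the proneural factor ascl1a, at 2.27 ± 3.04 FPKM in MYC and 63.5 ± 31.8 FPKM in MYCN libraries (log2 difference -4.68 ± 0.59 SE, adjusted p = 0.000202), and the homeobox factor isl1, at 5.60 ± 4.46 and 44.8 ± 23.2 FPKM (-2.99 ± 0.50, adjusted p = 0.00176). For both the groups did not overlap, and the calls held with each library left out. The other 3 were less stable. The gata2a gene (-1.01 ± 0.29, adjusted p = 0.0353), named here after its value was seen, was not called in the fit blocked on replicate number (0.0502) and reached 0.119 with a library left out. The sympathetic factors hand2 (log2 difference -1.04 ± 0.26 SE, adjusted p = 0.0184) and phox2bb (-2.21 ± 0.53, adjusted p = 0.0140) fell in MYC cells. The hand2 call ended without MYCN 1, MYCN 2 or MYCN 4 (adjusted p up to 0.0757), and for MYC 5 to 8 or MYC 1 to 4 alone against MYCN (0.0830 and 0.0662). The phox2bb call ended without MYCN 1 or MYCN 2 (adjusted p up to 0.0616) and for MYC 5 to 8 alone (0.0836). Over all tested genes, 5.77% rose and 7.63% fell in MYC libraries (554 and 733 genes). After rescaling to a common sum the split was 367 and 905. In a fit blocked on replicate number (replicates 1 to 4 of each genotype), 964 rose and 1287 fell. Some genes were listed at exactly 0 throughout MYC 5 to 8 (6 genes), MYC 1 to 4 (2 genes) or MYCN 1 to 4 (12 genes) and not elsewhere. The libraries were grouped by shared zeros into 3 sets, a number fixed in advance. The labels do not say what these 3 sets are. For MYCN the set cannot be told apart from the genotype, and values are given for both MYC sets.

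By the mean over all libraries of each genotype, the first member, tfap2a, was the most abundant of the 8. Its level was 58.3 FPKM in the lowest, 91.3 at the median and 139.6 in the highest MYC library, against 344.6, 344.3, 150.3 and 195.6 FPKM in MYCN 1 to 4. Every MYC library lay below every MYCN library, although MYC 1 (139.6 FPKM) came close to MYCN 3 (150.3 FPKM). The means were 98.0 ± 30.7 FPKM in MYC and 259 ± 101 FPKM in MYCN libraries, a log2 difference of -1.36. Set by set, MYC 5 to 8 gave -1.57 and MYC 1 to 4 gave -1.16, each against the same 4 MYCN libraries. In MYC cells tfap2a still ranked above 92.1% of all genes by its mean, and in MYCN cells above 97.5%.

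The melanophore factor mitfa was near 0 in all MYC libraries and present in all MYCN libraries. The labels do not give the strain of either line, or whether one carries a mitfa allele or rescue construct, and such a difference between the lines cannot be told apart from the MYC and MYCN transgenes. It was listed at 0 in 2 of the 8 MYC libraries, with a median of 0.0572 and a highest value of 0.130 FPKM, against 37.4, 50.3, 23.7 and 26.6 FPKM in MYCN 1 to 4. The groups did not overlap. The means were 0.0588 ± 0.0488 FPKM in MYC and 34.5 ± 12.1 FPKM in MYCN libraries. The log2 difference was -5.01 with a pseudocount of 1 FPKM and -7.76 with 0.1 FPKM, so its size is set largely by the pseudocount. Both MYC sets gave nearly the same value, -5.02 in MYC 5 to 8 and -5.0 in MYC 1 to 4. By its mean mitfa ranked above 81.6% of all genes in MYCN cells and above 16.8% in MYC cells. It passed the filter on low values through the 4 MYCN libraries alone.

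Of the melanosome genes, pmela, whose product forms the fibrils on which melanin is laid down, was abundant in both genotypes and higher on average in MYC cells. It ranged from 69.0 over a median of 82.6 to 94.5 FPKM in MYC libraries, and was 69.1, 32.6, 77.0 and 17.8 FPKM in MYCN 1 to 4. The MYC libraries were tightly grouped, whereas MYCN 2 and MYCN 4 lay far below MYCN 1 and MYCN 3, which overlapped with MYC. The standard deviation was 11.3% of the mean in MYC and 57.9% in MYCN libraries, with means of 80.9 ± 9.17 and 49.1 ± 28.4 FPKM. The log2 difference was 0.92, with 1.03 for MYC 5 to 8 and 0.80 for MYC 1 to 4. It was 0.52 without MYCN 4, the lowest library.

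The receptor gene gpr143, known from human ocular albinism for its part in melanosome formation, was higher in every MYC library than in any MYCN library. Its levels were 22.1, 15.4, 3.29 and 16.3 FPKM in MYC 5 to 8, 3.75, 3.59, 2.80 and 2.62 FPKM in MYC 1 to 4, and 1.12, 1.51, 1.89 and 1.85 FPKM in MYCN 1 to 4. The libraries MYC 5, 6 and 8 were high, MYC 7 lay with MYC 1 to 4, and the MYCN libraries were lowest. The means were 8.73 ± 7.87 FPKM in MYC and 1.59 ± 0.358 FPKM in MYCN libraries. The log2 difference from MYCN was 1.51 over all MYC libraries, 2.33 for MYC 5 to 8 and 0.69 for MYC 1 to 4.

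**Figure D1:**
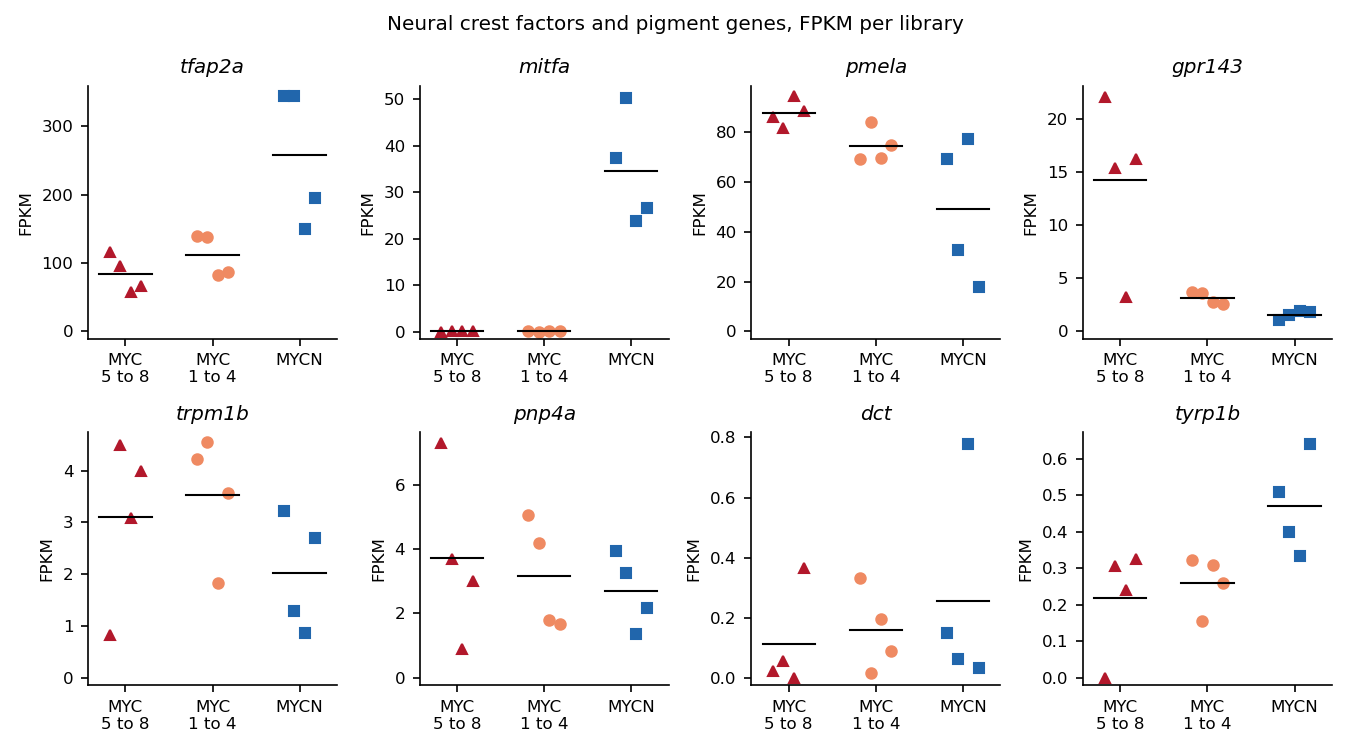
FPKM of the 8 genes in each library (linear axes, 1 panel a gene, different scales), with MYC 5 to 8 (triangles), MYC 1 to 4 (circles) and MYCN (squares) from left to right and the mean of each as a line. The tfap2a and mitfa points of MYC all lie below those of MYCN, the gpr143 points of MYC lie above, and dct and tyrp1b stay under 1 FPKM throughout.

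The other 4 members were low. The cation channel gene trpm1b, which in mammals is used by melanocytes and by retinal bipolar cells, ranged from 0.823 over a median of 3.78 to 4.55 FPKM in MYC libraries and was 3.22, 1.30, 0.867 and 2.69 FPKM in MYCN 1 to 4. The purine nucleoside phosphorylase gene pnp4a, a zebrafish iridophore marker, ranged from 0.902 over 3.36 to 7.29 FPKM in MYC libraries and was 3.95, 3.26, 1.37 and 2.18 FPKM in MYCN 1 to 4. For both genes the groups overlapped, with log2 differences of 0.51 and 0.18. Without MYCN 3 these were 0.31 and -0.01, and over all omissions of a library the pnp4a difference reached at most 0.34.

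The 2 melanin enzymes among the members did not reach 1 FPKM in any library and were left out by the filter. The dopachrome tautomerase gene dct ranged from 0 over 0.0737 to 0.366 FPKM in MYC libraries and was 0.149, 0.0629, 0.778 and 0.0329 FPKM in MYCN 1 to 4. The tyrosinase-related gene tyrp1b ranged from 0 over 0.283 to 0.327 FPKM in MYC libraries and was 0.509, 0.400, 0.334 and 0.640 FPKM in MYCN 1 to 4. The dct levels overlapped, and the tyrp1b levels of MYC lay just below those of MYCN.

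Of the 6 members tested, tfap2a and mitfa lay wholly lower in MYC and gpr143 wholly higher, where 5.6% and 3.73% of all tested genes did so. Since the members were picked on this contrast, nothing is read from these counts. By their means tfap2a and pmela stood first and second in both genotypes, although in MYC libraries their ranges overlapped. In MYC 5 to 8 alone pmela averaged more than tfap2a (87.5 and 84.1 FPKM). In MYCN libraries mitfa came next at 34.5 FPKM, overlapping with pmela, and pnp4a, trpm1b and gpr143 followed at 2.69, 2.02 and 1.59 FPKM with ranges that overlapped. In MYC libraries gpr143 came next, with a range that overlapped those of trpm1b and pnp4a, and mitfa was last of the 8.

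The members were picked on MYC against MYCN, not on MYC 5 to 8 against MYC 1 to 4. Earlier results of these data were known by then, so this second difference may not be independent of the choice. It was tested over the 9223 genes that reached 1 FPKM in 4 or more MYC libraries. Of these, 0.51% were called (47 genes), 0.119% as higher and 0.39% as lower in MYC 5 to 8. None of the 5 members tested was called with limma. An unadjusted p under 0.05 was found for 1 of them, gpr143, and for 764 of the 9223 genes. For gpr143 the means were 14.3 ± 7.89 FPKM in MYC 5 to 8 and 3.19 ± 0.562 FPKM in MYC 1 to 4, a log2 difference of 1.64 ± 0.46 (limma, adjusted p = 0.208). Without MYC 7, the library of MYC 5 to 8 that lay with MYC 1 to 4, the difference was 2.17 (limma, adjusted p = 0.00678). Nothing is read from that omission. Over all 8 omissions the adjusted p ranged up to 0.513. For tfap2a the means were 84.1 and 112 FPKM (-0.42 ± 0.30, adjusted p = 0.913), and for pmela 87.5 and 74.2 FPKM (0.24 ± 0.20, adjusted p = 0.936). The differences of trpm1b (-0.22 ± 0.38) and pnp4a (0.09 ± 0.45) were within their errors. Both turned direction when MYC 5 was left out, to 0.13 and -0.24, and pnp4a also without MYC 3 (-0.07) or MYC 4 (-0.09).

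The relatives of tfap2a split. The AP-2 gene tfap2b, which is active in sympathetic neurons in mammals, fell in MYC cells. It was 99.4, 4.79, 1.23 and 4.33 FPKM in MYC 5 to 8, 33.9, 11.9, 15.2 and 22.1 FPKM in MYC 1 to 4, and 143, 328, 158 and 153 FPKM in MYCN 1 to 4. All MYC libraries were lower than all MYCN libraries, and MYC 5 stood far above the other 7. The log2 difference was -3.77 ± 0.77 (SE, adjusted p = 0.00588), and no omission of a library raised the adjusted p above 0.0269. The gene tfap2c averaged 22.4 ± 6.84 FPKM in MYC and 18.9 ± 3.90 FPKM in MYCN libraries (0.21 ± 0.23, adjusted p = 0.597). Neither tfap2d nor tfap2e reached 1 FPKM. Summed over the family, AP-2 RNA was 145 ± 58.9 FPKM in MYC and 474 ± 166 FPKM in MYCN libraries. Of this sum tfap2a held 46.0% to 81.0% in MYC and 46.6% to 67.5% in MYCN libraries, and tfap2c held 16.5% ± 4.15 in MYC and 4.21% ± 1.14 in MYCN libraries. The sum and the shares include the difference by which tfap2a was picked and are descriptions.

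The family of mitfa consists of the MiT/TFE factors, which share a DNA-binding domain and also control lysosome genes. Only tfe3a passed the filter besides mitfa. It was 9.66, 10.2, 12.9 and 6.34 FPKM in MYC 5 to 8, 10.9, 6.87, 12.5 and 9.20 FPKM in MYC 1 to 4, and 5.74, 3.59, 4.10 and 4.67 FPKM in MYCN 1 to 4. Every MYC library was higher than every MYCN library, and tfe3a rose (0.95 ± 0.22, adjusted p = 0.0108). It was not called when MYC 5 to 8 alone were set against MYCN (adjusted p = 0.0536) or with the FPKM sums made equal between libraries (0.0643). The genes mitfb, tfeb and tfe3b stayed under 1 FPKM, and tfec, a factor of iridophores, was listed at 0 in all 12 libraries. In all, 705 genes were, and such a 0 can be a failed estimate. Within the family mitfa held 0% to 1.69% of the RNA in MYC and 82.1% to 91.7% in MYCN libraries, and tfe3a held 86.9% to 95.2% in MYC and 6.55% to 14.4% in MYCN libraries. These shares include the difference by which mitfa was picked and are descriptions.

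**Figure D2:**
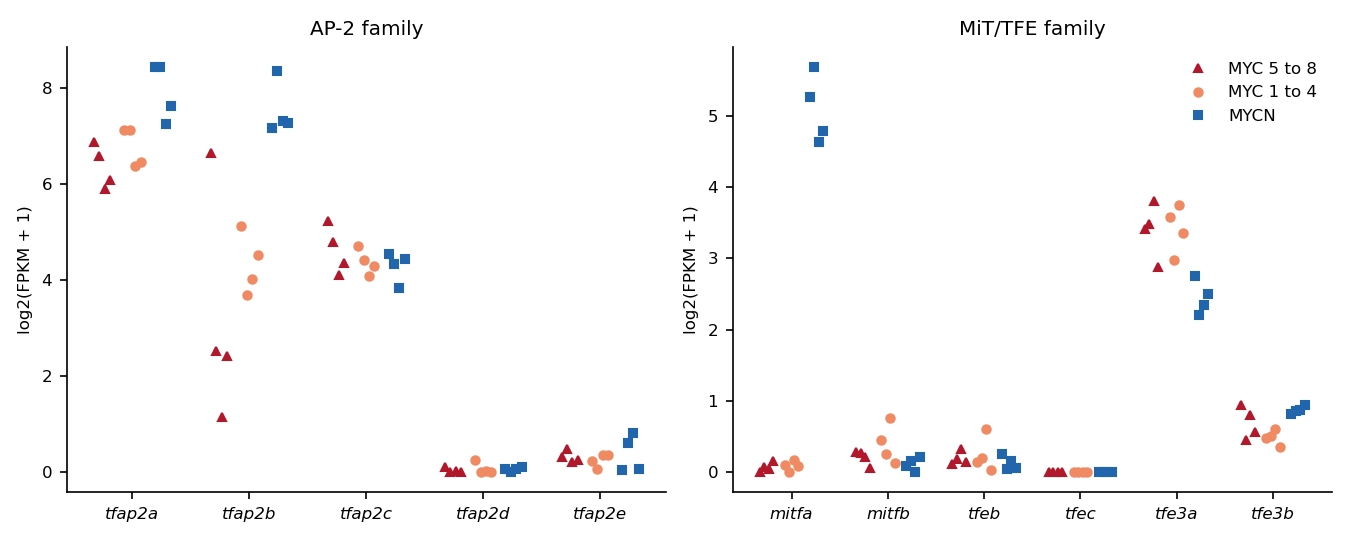
Levels of the AP-2 genes (left) and the MiT/TFE genes (right) in each library on the scale of log2(FPKM + 1), with MYC 5 to 8 (triangles), MYC 1 to 4 (circles) and MYCN (squares) from left to right for each gene. The tfap2a, tfap2b and mitfa points of MYCN lie highest, and those of tfe3a lie highest in MYC.

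Most other neural crest genes were low. Of 26 further symbols listed, 23 were in the table, 15 of these stayed under 1 FPKM in all libraries and 6 were tested. Of the 6, 1 was called as lower in MYC (lef1), 0 as higher and 5 were not called (median log2 difference 0.09, against -0.05 over all tested genes). The crest and pigment progenitor factor sox10 reached at most 0.0265 FPKM in MYC and 0.0683 FPKM in MYCN libraries. The factors foxd3 and pax3a also stayed at or below 0.139 FPKM in all 12.

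The gene lef1, a nuclear effector of Wnt signalling, was at or below 0.106 FPKM in all 8 MYC libraries, against 4.48, 6.56, 1.18 and 3.77 FPKM in MYCN 1 to 4. The groups did not overlap, with a log2 difference of -2.11. Like mitfa it passed the filter through the MYCN libraries alone, so it had to differ in order to be tested, and nothing is read from its call. The 3 other crest genes named by the rule did not pass. They were sox9b (0.946 FPKM in MYC and 4.92 FPKM in MYCN libraries, adjusted p = 0.0629), ets1 (3.49 and 0.988 FPKM, adjusted p = 0.262) and id2a (7.17 and 3.57 FPKM, adjusted p = 0.287). The sox9b gene was called without MYC 4 (adjusted p = 0.0492) or MYCN 4 (0.0103). With the replicate block ets1 was called (log2 difference 1.77, adjusted p = 0.00403), and it was also called for MYC 1 to 4 without the block (0.0194).

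The other melanophore genes ranged from values near 0 to 283 FPKM in single libraries. Of 24 further symbols, 15 were in the table and 8 of those stayed under 1 FPKM throughout. They included tyr, the first enzyme of melanin synthesis (at most 0.182 FPKM in MYC and 0.0884 FPKM in MYCN libraries), kita, the receptor that melanophores need to migrate and survive (0.0414 and 0.0359 FPKM), and the transporter genes slc45a2 and slc24a5. The MYCN libraries, which held mitfa at 23.7 FPKM or more, had kita, tyr, slc45a2 and slc24a5 at 0.0884 FPKM or less, but pmela at 17.8 FPKM or more, tspan36 at 22.8 FPKM or more and rab32a at 7.03 FPKM or more. The MYC libraries, with mitfa at 0.130 FPKM or less, had the same 4 genes at 0.182 FPKM or less. They held pmela at 69.0 FPKM or more, tspan36 at 96.2 FPKM or more and rab32a at 27.6 FPKM or more. Among the 6 tested, 2 rose, 0 fell and 4 were not called (median log2 difference 0.28).

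The larger rise was that of zgc:100919, now named tspan36, a tetraspanin gene of zebrafish pigment cells. It was 217, 270, 179 and 283 FPKM in MYC 5 to 8, 195, 148, 96.2 and 99.5 FPKM in MYC 1 to 4, and 30.2, 23.1, 30.4 and 22.8 FPKM in MYCN 1 to 4. All MYC libraries lay above all MYCN libraries (2.67 ± 0.29, adjusted p = 5.94e-05). The other was rab32a, a small GTPase that delivers enzymes to melanosomes and related organelles. Its means were 47.9 ± 13.6 FPKM in MYC and 9.62 ± 2.17 FPKM in MYCN libraries, again without overlap (2.17 ± 0.24, adjusted p = 6.77e-05). Both calls held with each library left out and for each MYC set. The exchanger gene slc24a4a (8.18 and 5.67 FPKM, adjusted p = 0.200) and the melanocortin receptor gene mc5ra (0.833 and 1.89 FPKM, adjusted p = 0.220) did not pass.

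**Figure D3:**
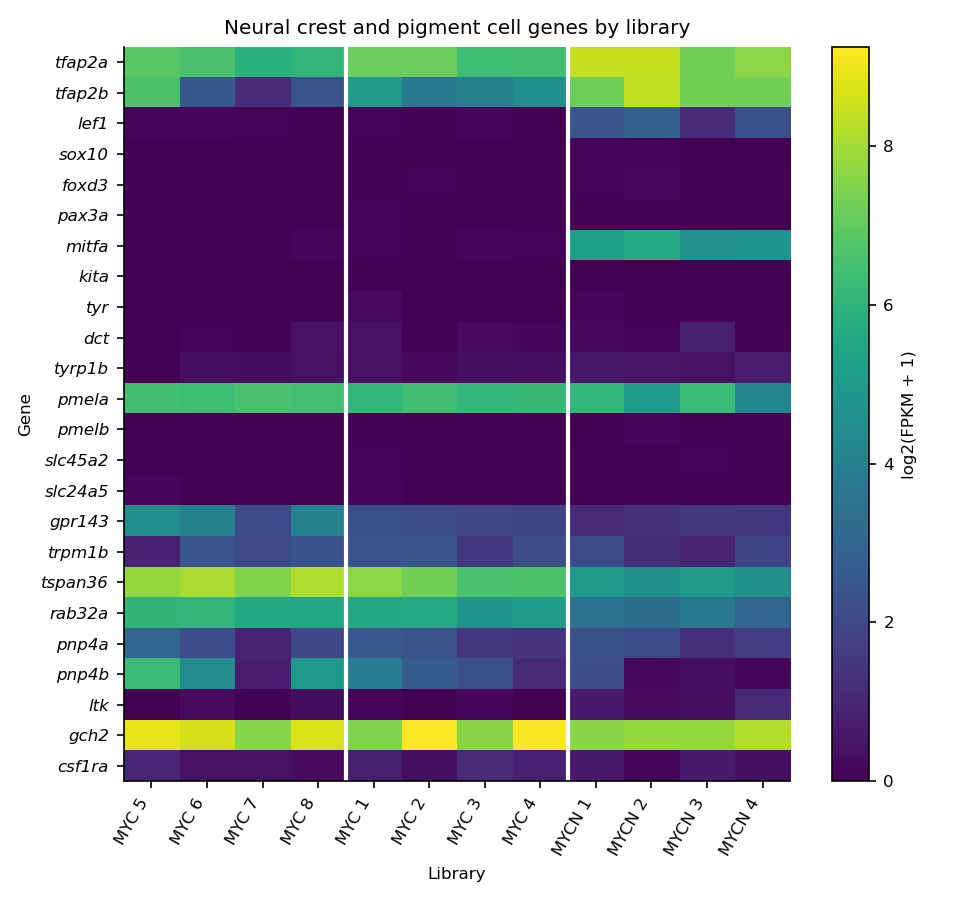
Heat map of log2(FPKM + 1) for neural crest and pigment cell genes (rows) in the 12 libraries (columns), MYC 5 to 8, MYC 1 to 4 and MYCN from left to right, separated by white lines. The mitfa and lef1 rows are lit in the 4 MYCN libraries alone, the pmela row in all 12, and the sox10, kita, tyr, slc45a2 and slc24a5 rows stay dark.

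Iridophore genes other than pnp4a held no call with limma among 3 tested of 12 measured. An unadjusted p under 0.05 was found for 2746 of all 9606 tested genes and for 2 of these 3. The 2 were further purine nucleoside phosphorylase genes, relatives of pnp4a. The gene pnp4b was 78.1, 21.0, 0.643 and 30.4 FPKM in MYC 5 to 8, 13.6, 5.38, 3.82 and 1.13 FPKM in MYC 1 to 4, and 3.55, 0.139, 0.285 and 0.133 FPKM in MYCN 1 to 4. Its libraries varied widely within each genotype, and MYC 7 and MYC 4 overlapped with MYCN 1 (2.56 ± 0.89, adjusted p = 0.0745). The gene pnp5a averaged 10.9 ± 8.71 FPKM in MYC and 3.70 ± 1.28 FPKM in MYCN libraries (1.12 ± 0.44, adjusted p = 0.110). With the replicate block both were called (adjusted p = 0.00662 and 0.0312). The pnp4b gene was also called without MYC 4 (adjusted p = 0.0453) or MYC 7 (0.0313), with a pseudocount of 0.1 FPKM (0.0382), after median-ratio scaling (0.0490) or quantile normalisation (0.0439), and with library weights (0.0194). The pnp5a gene was also called without MYC 7 (0.0369) and with library weights (0.0478). How alike the pnp genes are in sequence was not examined, and the sources used here do not say how reads were divided among them. The inosine monophosphate dehydrogenase gene impdh1b averaged 125 FPKM in MYC and 110 FPKM in MYCN libraries (adjusted p = 0.841). The iridophore receptor gene ltk stayed at or below 0.249 FPKM in MYC and was 0.221 to 1.13 FPKM in MYCN libraries.

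Of the xanthophore and pteridine genes, 17 were in the table and 6 were tested, with 1 that rose, 0 that fell and 5 uncalled (median log2 difference 0.02). The one that rose was pts, an enzyme of tetrahydrobiopterin synthesis, whose product is also the cofactor of tyrosine hydroxylase. It averaged 5.10 ± 1.76 FPKM in MYC and 2.38 ± 0.656 FPKM in MYCN libraries (0.81 ± 0.25, adjusted p = 0.0469). That call ended without any single library other than MYC 4 and MYC 8 (adjusted p up to 0.119), and for MYC 5 to 8 (0.133) or MYC 1 to 4 (0.0924) alone. It also ended with no filter, with a filter at 5 FPKM and with sums made equal between libraries (adjusted p up to 0.0691). The GTP cyclohydrolase gene gch2, at the start of the same pathway, was high in both, at 378 ± 175 FPKM in MYC and 232 ± 41.3 FPKM in MYCN libraries (adjusted p = 0.332). The pathway genes spra (5.38 and 6.61 FPKM, adjusted p = 0.613) and pcbd1 (116 and 145 FPKM, adjusted p = 0.480) did not pass, and pcbd1 was called with the replicate block (-0.56, adjusted p = 0.0454). The xanthophore receptor gene csf1ra, which macrophages also use, ranged from 0.207 to 1.22 FPKM in MYC and from 0.0894 to 0.584 FPKM in MYCN libraries.

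Of the receptors and ligands that guide pigment cells, 15 were in the table, 10 stayed under 1 FPKM and 2 were tested. With limma neither was called and neither had an unadjusted p under 0.05. They were kitlga, the ligand of kita (15.8 ± 9.44 FPKM in MYC and 15.6 ± 6.05 FPKM in MYCN libraries, adjusted p = 0.876), and nrg1 (1.32 and 1.23 FPKM, adjusted p = 0.996). Of the untested genes, asip1 was at most 0.0826 FPKM in MYC libraries and 0.305, 1.47, 0.308 and 1.02 FPKM in MYCN 1 to 4. The gene csf1b was at most 0.227 FPKM in MYC libraries and 0.271 to 0.895 FPKM in MYCN libraries. For asip1 and csf1b the groups did not overlap, and for the other untested genes they did. The filter left both out, so neither could be counted as fallen.

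The machinery that loads and moves melanosomes also serves lysosomes in other cells. Of 30 measured genes 27 were tested, with 4 that rose, 0 that fell and 23 uncalled (median log2 difference 0.26). Over all tested genes 5.77% rose and 7.63% fell. Besides rab32a, those of the list that rose were dtnbp1a, bloc1s6 and hps4. The dysbindin gene dtnbp1a and the pallidin gene bloc1s6 encode subunits of the same sorting complex, BLOC-1. The dtnbp1a gene averaged 32.0 ± 5.79 FPKM in MYC and 12.3 ± 2.27 FPKM in MYCN libraries (1.31 ± 0.19, adjusted p = 0.000650). The bloc1s6 gene averaged 257 ± 56.4 FPKM in MYC and 113 ± 14.4 FPKM in MYCN libraries (1.16 ± 0.19, adjusted p = 0.00156). In both genes the groups did not overlap. The other tested BLOC-1 genes of the list, bloc1s2, bloc1s3, bloc1s4 and bloc1s5, were not called. Their log2 differences were 0.70, 0.57, 0.21 and 0.34 (limma, adjusted p = 0.0650, 0.289, 0.657 and 0.668). The second dysbindin gene, dtnbp1b, stayed at or below 0.806 FPKM and was not tested. The hps4 gene, which acts with rab32a, averaged 10.9 ± 2.10 FPKM in MYC and 6.60 ± 1.86 FPKM in MYCN libraries (0.67 ± 0.20, adjusted p = 0.0445). Its call ended without any single library other than MYC 7 and MYCN 2 (adjusted p up to 0.127), for MYC 5 to 8 (0.251) or MYC 1 to 4 (0.0685) alone, and with sums made equal (0.166). Of the uncalled genes, vps33a lay lower in every MYC library than in any MYCN library (-0.67 ± 0.22, adjusted p = 0.0578). The hps1 gene averaged 2.95 FPKM in MYC and 5.15 FPKM in MYCN libraries (-0.69 ± 0.25, adjusted p = 0.0874). With the replicate block both were called as lower (adjusted p = 0.0384 and 0.0351), and hps5 (0.0160) and bloc1s2 (0.0334) as higher.

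Over the 5 pigment lists together, 43 genes outside the members were tested, of which 6 rose and none fell. That is set against 5.77% and 7.63% of all tested genes. Over all 9606 tested genes 2746 had an unadjusted p under 0.05 with limma, and of the 43 pigment genes 13 did. With the replicate block 10 pigment genes rose and 3 fell, beside 964 and 1287 of all 9334 genes tested in that fit. With library weights 11 rose and 1 fell, beside 929 and 1049 of all 9606. In the main fit the median log2 difference of the 43 pigment genes was 0.17, and -0.05 over all genes tested.

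**Figure D4:**
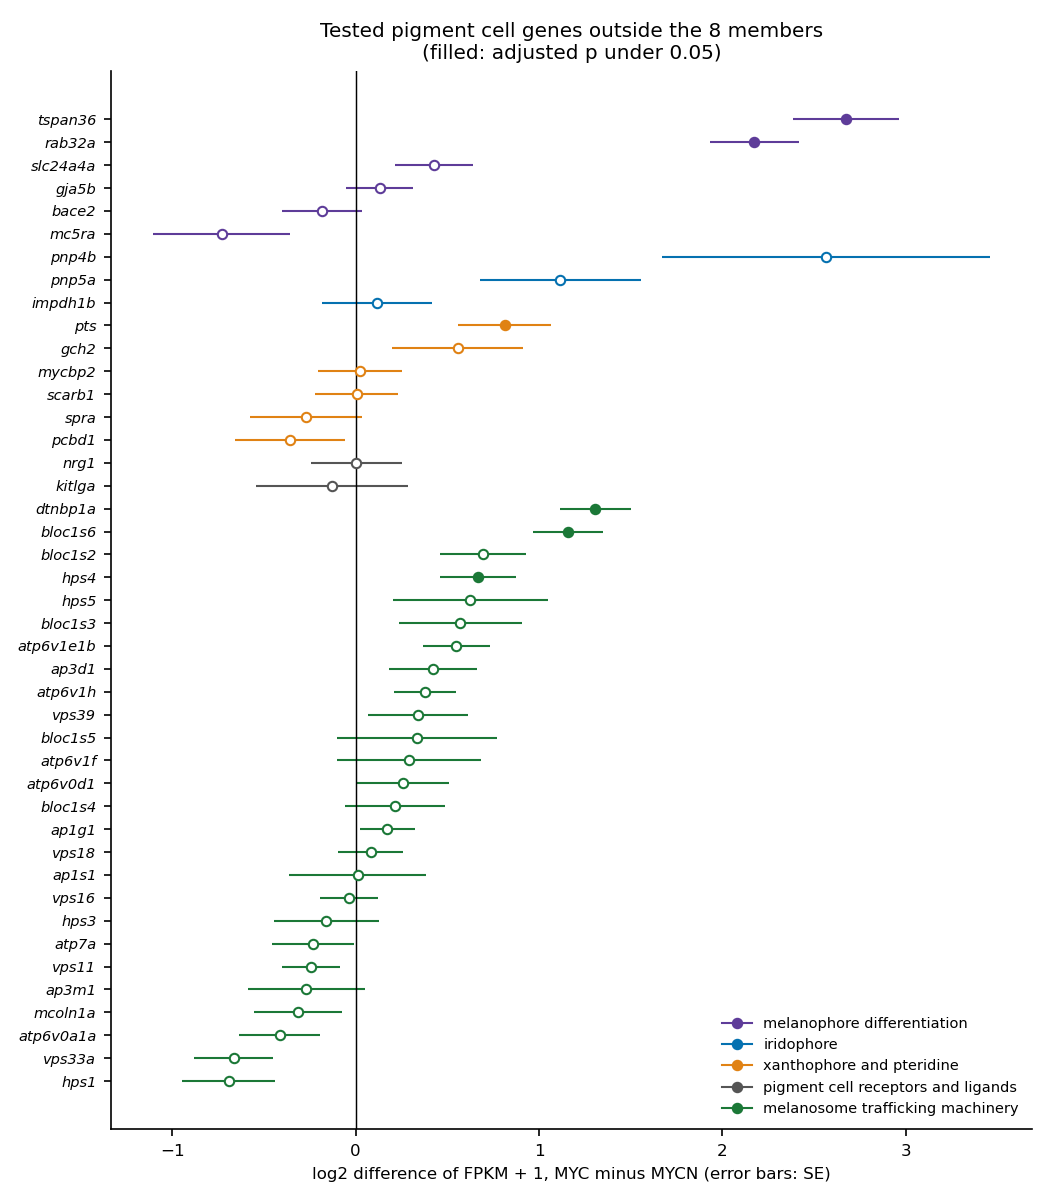
Log2 difference of FPKM + 1, MYC minus MYCN, with SE as error bars, for the 43 tested pigment cell genes outside the members, coloured by list, with filled points for an adjusted p under 0.05. The 6 filled points all lie to the right of 0, led by tspan36 at 2.67 and rab32a at 2.17.

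Markers of other cells stood beside these values. Of 12 tested macrophage genes 8 rose, among them c1qc and mfap4 (adjusted p = 0.00348 and 0.00355), c1qb (71.5 ± 44.3 FPKM in MYC and 8.95 ± 5.13 FPKM in MYCN libraries, adjusted p = 0.00133) and spi1b (10.2 ± 4.34 and 1.71 ± 0.893 FPKM, adjusted p = 0.00189). The 13 measured macrophage genes summed to 268 to 1627 FPKM in MYC and 57.5 to 692 FPKM in MYCN libraries. The top MYCN value was that of MYCN 3, where cd74a alone made up 549 FPKM, and the other MYCN libraries had 144 FPKM or less. Within MYC the sum was 268 to 384 FPKM in MYC 5 to 8 and 569 to 1627 FPKM in MYC 1 to 4. The log2 differences of MYC 5 to 8 minus MYC 1 to 4 were 1.64 for gpr143, 0.85 for tspan36 and 0.51 for rab32a. Those of bloc1s6, tfe3a and dtnbp1a were 0.37, -0.02 and -0.01, and none of these genes was called in that fit. Of the 12 macrophage genes tested in it, 2 were called as lower in MYC 5 to 8 and 0 as higher. Over all genes tested in it, 0.39% and 0.119% were. An unadjusted p under 0.05 was found for 9 of the 12 with limma, and for 764 of all 9223. The median log2 difference of the 12 was -1.24. The part of macrophages in the higher gpr143, tspan36, rab32a, tfe3a, dtnbp1a and bloc1s6 levels was not tested. A larger number of cells of a type cannot be told apart from more RNA per cell.

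Of the 17 glia genes measured 11 stayed under 1 FPKM, 1 rose (mbpb) and 1 fell (fabp7a, which reached 1 FPKM in the 4 MYCN libraries and 1 MYC library). Their sum was 21.5 to 67.9 FPKM in MYC and 17.0 to 38.7 FPKM in MYCN libraries. Much of it came from mbpb (15.9 to 50.7 FPKM in MYC and 7.78 to 15.7 FPKM in MYCN libraries). The uncalled gene egr2b (0.534 to 22.5 and 0.907 to 16.0 FPKM) also added to it. The gene erbb3b, which glia and pigment progenitors use, was near 0. The mbpb call ended without MYCN 3 (adjusted p = 0.0527) and for MYC 1 to 4 alone (0.0635). Of 13 retinal pigment epithelium genes 10 stayed under 1 FPKM, and 1, the head and retina homeobox factor otx2, was called as higher. It ranged from 0.193 to 5.80 FPKM in MYC libraries and reached at most 0.0187 FPKM in MYCN libraries. It passed the filter through MYC libraries alone and so had to differ in order to be tested, and nothing is read from its call. The tested genes rgrb (7.44 FPKM in MYC and 6.23 FPKM in MYCN libraries) and rlbp1b (1.64 and 0.964 FPKM) were not called (limma, adjusted p = 0.716 and 0.500). The genes rpe65a, rrh and rgra stayed at or below 0.0773 FPKM in all 12. None of 9 tested erythroid genes was called with limma, and none had an unadjusted p under 0.05. Erythroid RNA was present, with the 10 measured genes summing to 65.2 to 1281 FPKM in MYC and 331 to 666 FPKM in MYCN libraries. Of 5 keratinocyte genes krt8 rose (1.06 ± 0.33, adjusted p = 0.0466), and that call ended in 9 of the 12 omissions of a library.

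Genes with the profile most like that of the 2 factors were sought by the root mean square distance between log2(FPKM + 1) values standardised over the 12 libraries. These profiles include the MYC against MYCN difference on which both factors were picked. The distances in part restate it, and they are given as descriptions alone. For mitfa the nearest 5 of the tested genes were si:dkey-147f3.4, zgc:110647, the delta opioid receptor gene oprd1b, the arginine methyltransferase gene prmt9 and creb3l1, a factor of the secretory pathway, at distances of 0.147 to 0.175 against a median of 1.30. Of these, oprd1b was at most 0.789 FPKM in MYC libraries, against 25.8, 48.9, 10.8 and 19.4 FPKM in MYCN 1 to 4. Like mitfa, oprd1b and zgc:110647 passed the filter through the MYCN libraries alone. For tfap2a they were zgc:172136, the coronin gene coro2a, amer2, which acts in Wnt signalling, sprn2 and the glutathione transferase gene gstm, at 0.245 to 0.267 against a median of 1.17. For example, coro2a averaged 7.92 ± 2.55 FPKM in MYC libraries and was 22.7, 32.3, 10.6 and 15.6 FPKM in MYCN 1 to 4. No other member was among either 5. The factor mitfa was the 272nd of 9605 genes by distance from tfap2a (0.541), and pmela, gpr143 and trpm1b lay farther, at 1.52 to 1.70 from tfap2a and at 1.61 to 1.75 from mitfa. The gene pnp4a lay at 1.099 from tfap2a, nearer than the median gene, and at 1.43 from mitfa.

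The genes beside the 2 factors in the RefSeq gene order (assembly GRCz12tu, used for order alone) were also looked up, a choice made after their values were seen. Of the 8 nearest protein-coding neighbours of mitfa, 4 were in the table and 3 were tested (trnt1, arl6ip5a and foxp1b). Of the 8 neighbours of tfap2a, 5 were in the table and 4 were tested (slc35b3, tmem14ca, mak and elovl2). With limma none of these 7 was called and none had an unadjusted p under 0.05. With the replicate block elovl2 was called (log2 difference 0.81, adjusted p = 0.0382). The gene trnt1 averaged 36.8 FPKM in MYC and 30.9 FPKM in MYCN libraries, and mak averaged 25.1 and 25.9 FPKM.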

How the data were processed

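Per the labels' protocols, EGFP-positive cells were sorted from mechanically broken-up tumours, and their RNA was ribosome-depleted and sequenced as paired reads. The authors deposited 1 FPKM value per gene and library. The submitters' processing notes name cutadapt, TopHat2 2.0.11 and Cufflinks 2.2.1. For the build, the annotation and multiply mapped reads, the sources used here give nothing.

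On log2(FPKM + 1) of the deposited values, a linear model was fitted per gene (limma 3.58.1, R 4.3.3, moderated with a trend), MYC minus MYCN. P-values were adjusted by Benjamini-Hochberg over the genes that reached 1 FPKM in 4 or more libraries, with a threshold of 0.05. Fold changes of low genes are understated on this scale. Depth is unknown, so precision rests on the spread between libraries, which may be technical. On simulated data with changes of 1 and 2 on the log2 scale, 44% and 92% of changed genes were recovered for MYC minus MYCN over 9606 genes, and 15% and 67% for MYC 5 to 8 minus MYC 1 to 4 over 9223. Of the genes left unchanged, 10 and 2 were called. The changes were put into 200 genes above a floor of mean level, with independent normal noise. These rates therefore do not cover low genes such as trpm1b and pnp4a.

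The members and the 14 lists (190 of 233 symbols matched, 16 under another name) were chosen with earlier results of these data known. Named are the members, both families, the 4 genes of each list with the smallest p (called ones alone for other cell types), the 5 nearest profiles, and dbh, th, hand2 and phox2bb. Neighbouring genes, gata2a, ddc, slc18a2, vps33a, hps1, hps5, bloc1s2, phox2a, fabp7b, egr2b, rgrb, rlbp1b and genes near 0 were added after their values were seen. The same holds for bloc1s3, bloc1s4, bloc1s5, dtnbp1b, asip1 and csf1b. Over replicates 1 to 4, deviations from the group mean correlated between equal numbers at 0.363, 0.471, 0.564 and 0.163, above the limit of 0.1. For number 4 the best match was another number. The labels do not explain the numbers. The main fit has no block, and a fit blocked on the numbers is given as an alternative. Alternatives covered the pseudocount, filter, scaling, library weights, replicate block, MYC sets and each library left out.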

Additional observations from a re-analysis of the deposited data

Results flagged for a closer look

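Among 110 combinations of 55 genes and a genotype, 14 held a library whose gap to the others was large for its group. Each was the highest library of its group, on the linear FPKM scale. The genes were chosen with values known, and several of the 14 share a library. A chance rate of about 1 in 20 can therefore not be set against the 14, and no excess is read from them. Of the members dct alone was flagged, at 0.778 FPKM in MYCN 3. Its level stayed under the filter there.

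In MYC libraries MYC 5 stood apart for tfap2b (99.4 FPKM), pnp4b (78.1 FPKM), pnp5a (30.5 FPKM), phox2bb (27.8 FPKM) and creb3l1 (1.83 FPKM). The library MYC 4 did so for mc5ra (3.28 FPKM) and sox9b (2.35 FPKM), and MYC 8 for krt8 (42.4 FPKM). In MYCN libraries MYCN 2 stood apart for tfap2b (328 FPKM) and zgc:110647 (5.91 FPKM), MYCN 1 for pnp4b (3.55 FPKM) and nrg1 (1.54 FPKM), and MYCN 4 for isl1 (79.5 FPKM).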

How the results depend on the processing

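Genes that rose and fell in MYC numbered 554 and 733. They were 929 and 1049 with library weights, 964 and 1287 with the replicate block, 367 and 905 after rescaling to a common sum, 444 and 447 for MYC 1 to 4 and 391 and 456 for MYC 5 to 8 against MYCN, and 279 to 632 and 377 to 722 with 1 library left out. They were 345 and 427 without MYCN 1, 321 and 444 without MYCN 2, and 279 and 377 without MYCN 4. Rescaling to a common sum moved the median over all genes to -0.22, and 28.9% of calls were then higher in MYC, against 43.0%. Of the pigment genes outside the members, 6 rose and 0 fell. The fallers were 3 with no filter or the replicate block and 1 after median-ratio scaling, quantile normalisation, rescaling or library weights. The risers were 11 with weights, 10 with the block and 4 to 7 with a library left out, where 0 fell.

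Between the MYC sets 11 genes were higher and 36 lower in MYC 5 to 8. These were 17 and 64 after median-ratio scaling, 17 and 55 after quantile normalisation, 14 and 63 after rescaling, 8 and 20 with no filter, and 0 to 12 and 3 to 30 with a library left out, with 0 higher without MYC 6 or MYC 8. The pnp4a difference between the sets ran from -0.24 to 0.46 over the omissions, and that of trpm1b from -0.43 to 0.13.

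Of the members' log2 differences MYC minus MYCN, that of mitfa moved beyond 1 SD with a pseudocount of 0.1 FPKM (-7.76). With a library left out pmela ran from 0.52 to 1.20, trpm1b from 0.31 to 0.70 and pnp4a from -0.01 to 0.34, turning direction without MYCN 3. The gene mitfa could not be fitted without a MYCN library, since it then fell under the filter. Among the uncalled genes nrg1 turned direction with a pseudocount of 0.1 FPKM (-0.082), quantile normalisation (-0.00193), rescaling (-0.12), and the block or MYC 1 to 4 (-0.33). The same held for impdh1b after rescaling (-0.068) and with the block or MYC 1 to 4 (-0.070). Over the omissions nrg1 ran from -0.081 to 0.11, impdh1b from -0.029 to 0.27 and kitlga from -0.31 to 0.093. The cause was not tested. Among others, the replicate block also called ets1, pnp4b, pnp5a, pcbd1, hps1, vps33a, hps5, bloc1s2 and elovl2. It called the sympathoadrenal gene phox2a and the glia gene fabp7b too, and ended the call of gata2a. Unknown depth limits what can be read from values near 0.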
